A study of Mus musculus with 3 samples.

Results

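Matrix metalloproteinases and their inhibitors were followed here as 8 genes, chosen by name: the proteases Mmp2, Mmp3, Mmp9, Mmp12 and Mmp14 and the inhibitors Timp1, Timp2 and Timp3. They are 8 of 27886 genes that at least 1 of 3 single-cell count tables lists. All 8 were listed for beating cardiac bodies (CB), 7 for mouse embryonic stem cells (mESC, without Mmp3) and 6 for cardiac precursor cell cultures (CPCC, without Mmp3 and Mmp12). A table lists only genes that reached at least 1 count in some cell. A gene missing from a table had no value in levels and in ratios between cultures. In sums over the proteases, and in shares of these sums, it counted as 0.

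The cells were male F1 hybrids, labelled C57BL/6 x CAST/EiJ, grown in vitro, and no group carried an engineered allele. The mESC were kept on gelatin in medium with LIF and the inhibitors known as 2i. CPCC were made from embryoid bodies formed with ascorbic acid, whose cells were then enriched and passaged in medium with EGF and Fgf2. CB were hanging-drop aggregates in ascorbic acid medium, and beating bodies were picked by hand. CB were therefore not grown from CPCC. Cells were isolated on Fluidigm C1 chips, and full-length cDNA of polyadenylated RNA was sequenced. The labels name the mESC sample a triplicate and the study derived clones from several blastocysts, but no column says which clone a cell came from. Each culture is 1 sample, so no test between cultures was possible, and differences below are described with counting error and with the values of the sequenced cell pools, which are not replicates. Reads were amplified by PCR and carry no molecular identifiers, so all intervals given below cover counting error only.

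The tables held 215 mESC cells in 3 pools, 175 CPCC cells in 2 pools and 232 CB cells in 3 pools, with medians of 1528316, 1437414 and 1397869 counts per cell. No cell name was shared between pools and no 2 cells had identical values. The 3 mESC clusters, described further on with the clusters of the other cultures, each had the 10 pluripotent markers in most of their cells. CB are labelled mature cardiac cells, among which the study named cardiac fibroblasts, cardiomyocytes, endocardium and pericardial cells. Each of 12 cardiomyocyte markers was found in at most 15.1% of CB cells, the share for Actc1, and Myh6 in 6.03%. The summed fibroblast markers (collagens, Dcn and Lum among them) had 14444 and 15665 CPM (gene counts scaled to a fixed total over the cells in question) in CB pools 1 and 3 but 477 CPM in pool 2, and the endothelial markers had 1393 CPM in CB pool 2 against 98.1 and 58.1 CPM in the others. In CPCC, pluripotent markers had 5693 and 1242 CPM in pools 1 and 2, while macrophage markers had 16.9 and 4713 CPM in these pools. Fibroblast markers had 126 and 1057 CPM there, smooth muscle markers 4051 and 7304 CPM and epithelial markers 1822 and 535 CPM. The makeup of the pools moved with the levels of the 8 genes below, and its part in those levels was not tested.

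Matrix metalloproteinases are zinc-dependent endopeptidases, made as inactive pro-enzymes, that cleave collagens, elastin, fibronectin and other parts of the extracellular matrix. Mmp2 and Mmp9 are the gelatinases, which also cleave the collagen of basement membranes. Mmp14 sits in the plasma membrane, cleaves fibrillar collagen and activates pro-Mmp2, for which Timp2 serves as the link: Mmp14 bound to Timp2 captures pro-Mmp2, and a neighbouring free Mmp14 cuts it. The Timp proteins block active metalloproteinases by binding in their catalytic cleft. Timp1 is a weak inhibitor of Mmp14, Timp2 a strong one, and Timp3 is held in the matrix and also blocks several Adam and Adamts enzymes. In the heart these genes are known for their part in matrix turnover during development and after injury. The values here are of mRNA. They say nothing of protein, activation or activity.

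In GENCODE M21 on GRCm38 (mm10), the build that the labels name, all 8 are protein-coding genes. Mmp2 lies at chr8:92827291-92853420, Mmp9 at chr2:164940780-164955850, Mmp14 at chr14:54431612-54445364 and, in 1 stretch of a chromosome, Mmp12 at chr9:7344381-7369499 and Mmp3 at chr9:7445822-7455975. Timp1 lies at chrX:20870166-20874735 inside an intron of Syn1, Timp2 at chr11:118301069-118355740 and Timp3 at chr10:86300372-86349506, overlapping Syn3. Timp3 shares 1733 exon bases, 21.3% of its own, with Syn3 on the opposite strand, and the SMART-Seq and Nextera XT kits used do not mark strand, so reads in these bases cannot be told apart. Syn3 held 0.798, 0.931 and 7.98 CPM in mESC, CPCC and CB, which is 31.9, 0.468 and 2.38% of the counts of Timp3 there. Mmp12 shares 157 exon bases with Mmp1b, which no table lists.

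The bases before the start site are shown for 3 members found in very different shares of the cells: Timp1, found in most mESC and CPCC cells, Mmp14, found in most CPCC and CB cells, and Mmp3, found in 2 CB cells. The sequences are the 250 bases upstream of the start in RefSeq (GRCm38.p6), read 5′ to 3′ on the strand of the gene, all of them the plus strand. Capitals mark matches on either strand to 3 motifs: the AP-1 motif TGANTCA, the GC box GGGCGG and the TATA box TATAAA. The windows are chrX:20869916-20870165 for Timp1, chr14:54431348-54431597 for Mmp14 and chr9:7445572-7445821 for Mmp3.
Timp1: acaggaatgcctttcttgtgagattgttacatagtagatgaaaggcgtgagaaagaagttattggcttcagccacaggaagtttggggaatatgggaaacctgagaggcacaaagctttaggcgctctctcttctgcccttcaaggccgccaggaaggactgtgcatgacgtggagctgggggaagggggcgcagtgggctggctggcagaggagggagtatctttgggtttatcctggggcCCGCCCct
Mmp14: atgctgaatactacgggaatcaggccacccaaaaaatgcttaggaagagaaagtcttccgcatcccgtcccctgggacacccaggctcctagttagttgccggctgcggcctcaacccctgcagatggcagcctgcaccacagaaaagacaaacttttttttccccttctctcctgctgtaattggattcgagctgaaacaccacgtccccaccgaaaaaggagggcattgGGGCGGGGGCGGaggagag
Mmp3: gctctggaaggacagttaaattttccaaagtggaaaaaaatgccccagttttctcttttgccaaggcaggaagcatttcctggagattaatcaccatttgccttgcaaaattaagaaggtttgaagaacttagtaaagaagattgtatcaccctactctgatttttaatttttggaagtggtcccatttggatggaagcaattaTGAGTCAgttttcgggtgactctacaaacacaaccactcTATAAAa

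Timp1 and Mmp14 each had a GC box in this window, with 2 adjoining matches in Mmp14, and no match to the other motifs. The same was found for Timp2 and Timp3, which had 1 GC box each. Mmp3 had an AP-1 match and a TATA box and no GC box, and of the 2 windows given for Mmp12 1 had an AP-1 match. The windows were 54.4% G or C for Timp1, 55.2% for Mmp14, 68.0% for Timp2 and 65.6% for Timp3, against 37.6% for Mmp3 and 39.6 to 40% for Mmp12. Among all 32851 windows of this length, 32.7% held a GC box, 6.75% an AP-1 match and 12.4% a TATA box. These are matches of letters, not measured sites, and Mmp2 and Mmp9 had no entry in the table used.

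Mmp2, the gelatinase of many connective tissue cells, was low in mESC and high in the other cultures. Its level was 3.29 CPM (exact Poisson interval 3.10 to 3.48) in mESC, 154 (152 to 155) in CPCC and 515 (513 to 517) in CB. By pool it was 1.36, 3.66 and 4.86 CPM in mESC, 27.9 and 271 CPM in CPCC, and 380, 126 and 931 CPM in CB. Every CPCC and CB pool thus lay above every mESC pool, while CB pool 2 lay below CPCC pool 2. At least 1 count of Mmp2 was found in 17 of 215 mESC cells (7.91%, exact Clopper-Pearson interval 4.67 to 12.4%), in 46.9% (39.3 to 54.5%) of those of CPCC and in 72.4% (66.2 to 78.1%) of those of CB. By pool the share was 29.1 and 61.5% in CPCC and 68.1, 59.0 and 88.2% in CB. With 5 counts or more required, the shares over all cells of a culture were 7.44%, 36.0% and 58.6%.

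Mmp14 followed the same order of cultures, at lower values with a narrower spread over the pools. It had 1.75 CPM (1.62 to 1.90) in mESC, 59.8 (58.9 to 60.8) in CPCC and 154 (152 to 155) in CB. The pools gave 1.72, 1.48 and 2.16 CPM in mESC, 36.6 and 81.6 CPM in CPCC, and 173, 54.8 and 236 CPM in CB. CB pool 2 again fell between the CPCC pools, and the mESC pools stood apart from all others. Mmp14 was found in 11.2% of mESC (7.29 to 16.2%), 56.0% of CPCC (48.3 to 63.5%) and 77.2% of CB cells (71.2 to 82.4%). With 5 counts or more required these shares were 5.12%, 49.7% and 72.0%, and the mESC share was then below the 7.44% of Mmp2.

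Mmp9, the gelatinase best known from leukocytes and remodelling tissue, was scarce everywhere. It was found in 5 mESC cells at 0.504 CPM, in 12 CPCC cells at 2.31 CPM and in 9 CB cells at 7.03 CPM. The pools gave 0, 1.28 and 0.0194 CPM in mESC, 4.37 and 0.379 CPM in CPCC, and 2.29, 12.7 and 3.86 CPM in CB, so the CPCC pools overlapped those of both other cultures. A few cells carried these sums: the highest cell held 53.1% of the Mmp9 counts in mESC, 29.7% in CPCC and 50.3% in CB. None of the 12 CPCC cells with Mmp9 belonged to the macrophage-like cluster of that culture, although 1 of them, in another cluster, had counts of all 10 macrophage markers.

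Mmp12, known as macrophage elastase, and Mmp3 or stromelysin, which also activates other pro-enzymes, were carried by a handful of cells. Mmp12 had 0.923 CPM in mESC, from 6 cells, and 0.665 CPM in CB, from 2 cells. The 6 mESC cells each had counts of all 10 pluripotent markers and of at most 1 of the 3 macrophage markers that the mESC table lists. In CB, 95.1% of the Mmp12 counts came from a cell of pool 1 with 214 counts of Mmp12, and this cell had counts of 9 of 10 macrophage markers and of 8 of 10 fibroblast markers. Mmp3 was found in 2 of 232 CB cells, both in pool 3, with 1396 and 1356 counts, and its culture-wide level of 8.14 CPM was the sum of these. In CB pools 1 and 2 it had 0 of 69 and 0 of 78 cells, for which the exact intervals reach 5.21% and 4.62%.

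**Figure D1:**
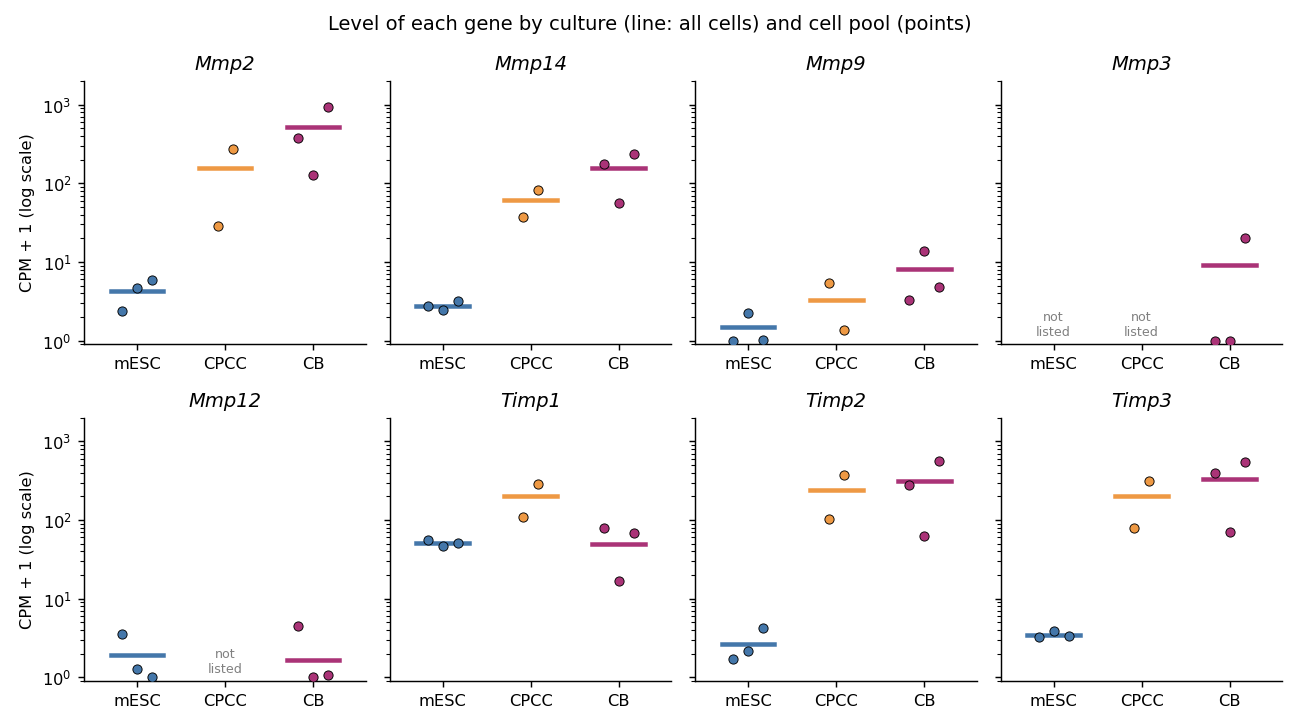
Level of each of the 8 genes as CPM + 1 on a log axis, by culture (mESC, CPCC and CB). Lines give the level over all cells of a culture and points that of each sequenced pool. Mmp2, Mmp14, Timp2 and Timp3 have every mESC pool below every other pool, whereas Timp1 has its mESC pools, at 46.4 to 54.6 CPM, within the range of the CB pools, at 15.6 to 78.7 CPM.

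Among the inhibitors, Timp1 was the one that the stem cells already held. It had 49.98 CPM (49.2 to 50.7) in mESC, 199 (197 to 200.2) in CPCC and 49.3 (48.6 to 50.1) in CB. The pools gave 54.6, 46.4 and 49.8 CPM in mESC, 109 and 283 CPM in CPCC, and 78.7, 15.6 and 67.5 CPM in CB. CPCC thus stood above both other cultures in each pool, and mESC and CB overlapped. The share of cells ran differently from the level. Timp1 was found in 86.5% of mESC cells (81.2 to 90.8%), 81.1% of CPCC cells (74.6 to 86.7%) and 36.2% of CB cells (30.02 to 42.8%). The same summed level in mESC and CB was therefore spread over many cells in the former, with a median of 45.8 CPM in cells that held it, and over fewer in the latter, with a median of 86.2 CPM. The 39 mESC cells with the most Timp1 counts together made up at least 50% of them, and so did the 10 such cells of CB.

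Timp2, the partner of Mmp14 in the activation of pro-Mmp2, was close to absent from mESC. It had 1.63 CPM (1.503 to 1.77) in mESC, 243 (241 to 245) in CPCC and 312 (310.4 to 314) in CB. The pools gave 0.705, 1.19 and 3.22 CPM in mESC, 102 and 375 CPM in CPCC, and 281, 62.6 and 555 CPM in CB. The CPCC and CB pools overlapped, and all of them lay far above those of mESC. Timp2 was found in 9 of 215 mESC cells (4.19%, 1.93 to 7.80%), 56.6% of CPCC cells (48.9 to 64.0%) and 75.4% of CB cells (69.4 to 80.8%).

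Timp3, the matrix-bound inhibitor, ran with Timp2. It had 2.499 CPM (2.34 to 2.67) in mESC, 199 (197 to 200.5) in CPCC and 335 (333 to 337) in CB. The pools gave 2.23, 2.87 and 2.31 CPM in mESC, 78.5 and 312 CPM in CPCC, and 399, 70.2 and 551 CPM in CB. In CPCC the 3 highest cells held at least 50% of its counts and the highest cell 20.7% of them, at 8928 CPM. Timp3 was found in 6.51% of mESC (3.61 to 10.7%), 52.0% of CPCC (44.3 to 59.6%) and 62.9% of CB cells (56.4 to 69.2%).

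**Figure D2:**
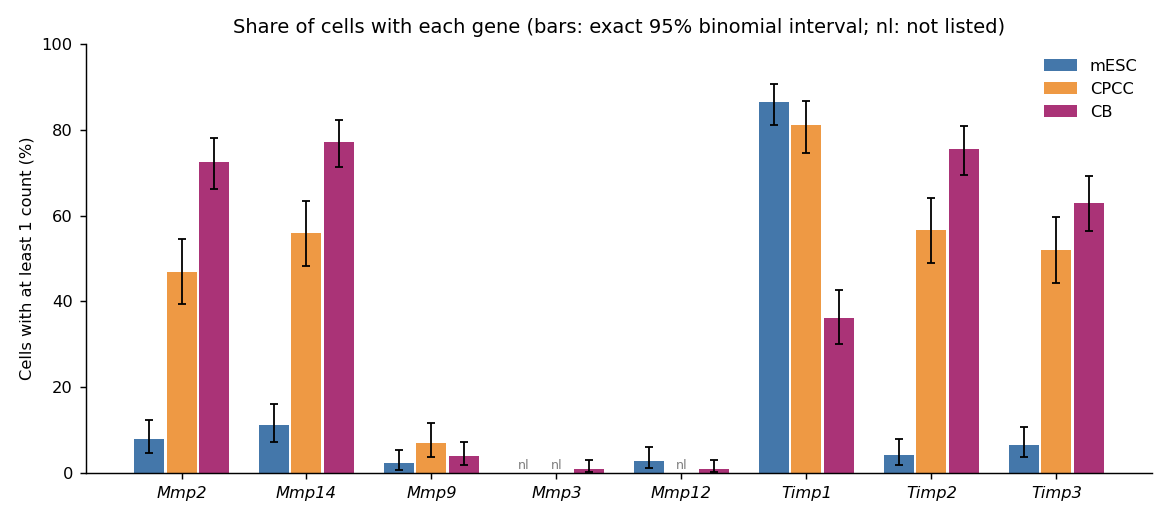
Share of cells with at least 1 count of each gene, in percent, for the 3 cultures. Bars are shares of 215 mESC, 175 CPCC and 232 CB cells, error bars are exact 95% binomial intervals, and nl marks a gene that the table of that culture does not list. Timp1 is the only gene of the 8 whose bar is high in mESC, at 86.5%, and lowest in CB, at 36.2%.

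The comparison of CPCC with mESC asked how the set differs between stem cells and precursor cultures, in which many cells still held pluripotent markers. Of the 6 members listed in both tables, all 6 were at least 2-fold higher in CPCC on the scale of log2 ratios of (CPM + 1), which understates the change of low genes. Of all 15471 genes compared, 17.5% were at least 2-fold higher and 8.36% at least 2-fold lower. The log2 ratio was 6.53 for Timp2, 5.84 for Timp3, 5.17 for Mmp2, 4.47 for Mmp14, 1.97 for Timp1 and 1.14 for Mmp9. Without CPCC pool 2 they were 5.28, 4.51, 2.75, 3.77, 1.11 and 1.84, so that Mmp2 fell below Mmp14. The median of the 6 was 4.82, beside -0.01 for all genes compared. For 5 of the 6 every CPCC pool lay above every mESC pool, as was so for 22.6% of all genes compared. Mmp9 was the exception, and its log2 ratio was -0.13 without CPCC pool 1.

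CB compared with mESC gave 5 of 6 members at least 2-fold higher (4 with a pseudocount of 10 CPM, where Mmp9 had a log2 ratio of 0.70), beside 30.8% of the 16018 genes compared, with 14% at least 2-fold lower. The log2 ratios were 6.91 for Mmp2, 6.89 for Timp2, 6.59 for Timp3, 5.81 for Mmp14 and 2.42 for Mmp9. Without CB pool 3 the first 4 were 5.604, 5.666, 5.658 and 5.091, so that Mmp2 fell below Timp2 and Timp3, and Mmp9 was 1.54 without CB pool 2. For each of these 5 every CB pool lay above every mESC pool, as was so for 29.6% of all genes compared. Timp1 had a log2 ratio of -0.02, which was 0.06 when all cells were weighted equally and -0.25 with DESeq2 size factors. Mmp12 was listed in both but stayed under 1 CPM in both, below the limit set for the count. The median of the 6 counted members was 6.20, beside 0.29 for all genes. That median of all genes was 0.07 with DESeq2 size factors and 0.13 with TMM factors, which lower each log2 ratio by about as much.

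Between CPCC and CB the members parted. CB had 3 of 6 members at least 2-fold higher than CPCC, 1 at least 2-fold lower and 2 in between. Of 16764 genes compared, 21.3% were at least 2-fold higher and 9.44% at least 2-fold lower, or 17.7% and 12.5% with DESeq2 size factors. The proteases were those that were higher, with log2 ratios of 1.74 for Mmp2, 1.35 for Mmp14 and 1.28 for Mmp9. For each of these the CB pools overlapped the CPCC pools, and without CB pool 3 or without CPCC pool 1 only 1 member, Mmp9, was at least 2-fold higher. The log2 ratio of Mmp9 was in turn 0.41 without CB pool 2, 0.58 without CPCC pool 2, 0.60 when all cells were weighted equally and 0.47 with a pseudocount of 10 CPM. Timp2 and Timp3 had log2 ratios of 0.36 and 0.75, and their pools overlapped too. Without CB pool 3 these were -0.87 and -0.18, without CPCC pool 1 -0.26 and 0.11, and without CPCC pool 2 1.61 and 2.08. The median of the 6 was 1.02, beside 0.22 for all genes, or 0.84 beside 0.04 with DESeq2 size factors. Timp1 was lower in CB, with a log2 ratio of -1.99, and all 3 CB pools lay below both CPCC pools, as was so for 11.1% of all genes compared. Without any 1 pool its log2 ratio ranged from -2.495 to -1.13.

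Levels of different genes were compared per kilobase (kb) of exon, since full-length libraries give long transcripts more reads. Timp3 has 8.144 kb of exon but a longest transcript of 4.722 kb, against 0.888 and 0.883 kb for Timp1. The order of these 2 in CB depends on the length used. The orders below and the shares of single inhibitors and proteases were not repeated with the longest transcript. In mESC, Timp1 stood alone on this scale, at 56.3 CPM per kb, with Mmp2 next at 0.976 and Timp2 at 0.420. In CPCC the order was Timp1 at 223.5, Timp2 at 62.4, Mmp2 at 45.6, Timp3 at 24.4 and Mmp14 at 10.04 CPM per kb. In CB it was Mmp2 at 153, Timp2 at 80.1, Timp1 at 55.5, Timp3 at 41.2 and Mmp14 at 25.8 CPM per kb. The ranges of the pools overlapped between all neighbours from Mmp2 to Mmp14 in CB and from Timp2 to Mmp14 in CPCC. Within pools, Mmp2 lay above Timp2 and Timp1 above Timp3 in all 3 CB pools, and Timp2 above Mmp2 in both CPCC pools. Timp2 lay above Timp1 in CB pool 3 alone, Mmp2 above Timp3 in CPCC pool 2 alone, and Mmp14 above Timp3 in CB pool 2 alone.

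The makeup of the inhibitor mRNA changed with the culture. Timp1 made up 98.7% of the summed inhibitor level per kb in mESC, 72.0% in CPCC and 31.4% in CB. Timp2 made up 0.736%, 20.1% and 45.3%, and Timp3 0.538%, 7.87% and 23.3%. The pools did not overlap between cultures for Timp1: its share was 98.1 to 99.3% in the mESC pools, 70.3 to 77.4% in the CPCC pools and 26.6 to 42.2% in the CB pools. Taken cell by cell, Timp1 was the highest inhibitor per kb in 185 of the 186 mESC cells that held any, in 73.6% of 163 such CPCC cells (66.2 to 80.2%; 93.4% in pool 1 and 56.3% in pool 2) and in 23.5% of 200 such CB cells (17.8 to 30%). In CB it was Timp2 in 52.0% of the cells and Timp3 in 24.5%, but by pool Timp2 in 45, 31.0 and 72.0% and Timp3 in 26.7, 39.7 and 12.2%, so that Timp3 led in pool 2. Of the 5 proteases followed, Mmp2 had the largest share of their summed level per kb, with 63.4% in mESC, 81.0% in CPCC and 82.5% in CB. Mmp14 had 19.1%, 17.9% and 13.9%. Other Mmp genes are not in this sum, such as Mmp11, at 12.5 CPM in mESC beside 3.29 CPM for Mmp2. The share of Mmp2 was 38.4 to 79.7% in the mESC pools, 52.9 to 85.4% in the CPCC pools and 74.6 to 84.3% in the CB pools, so these overlapped.

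**Figure D3:**
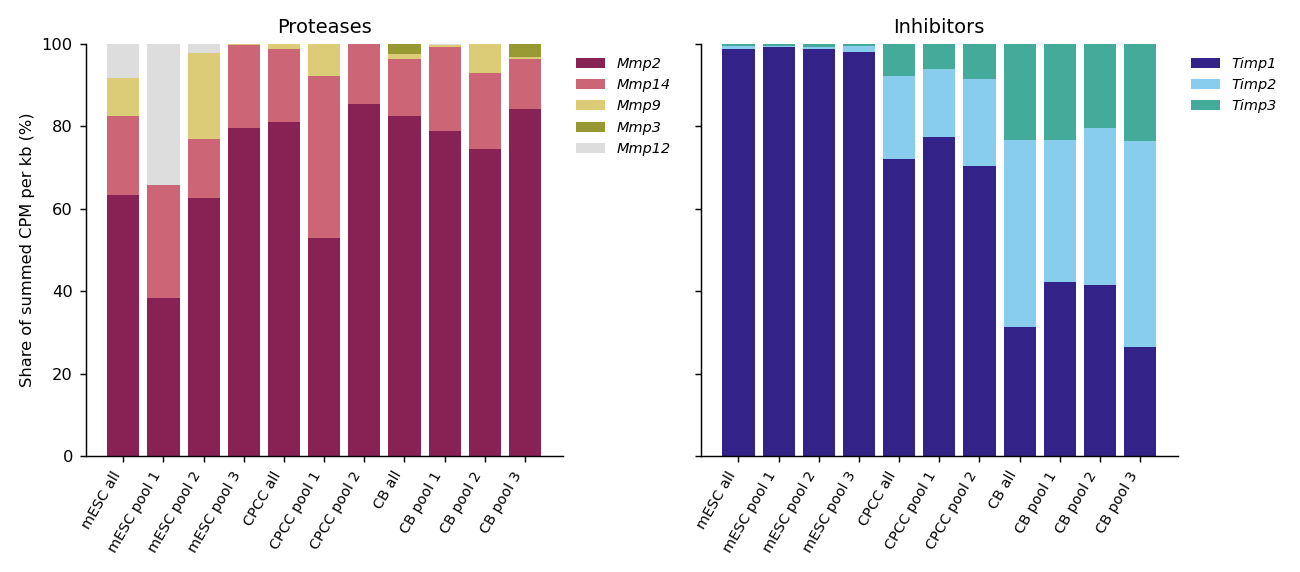
Share of each protease (left) and each inhibitor (right) in the summed CPM per kb of its role, in percent, for all cells of a culture and for each pool. Timp1 fills nearly all of the inhibitor bars of mESC, at 98.7% over all cells, and less than the other inhibitors together in every CB bar, at 31.4% over all cells.

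The balance of protease to inhibitor was then taken in each cell of at least 10000 counts, from the summed CPM per kb of the 5 proteases and of the 3 inhibitors. Mmp3 in mESC and Mmp3 and Mmp12 in CPCC, not listed for these cultures, counted as 0. Of 207 mESC cells, 183 had more inhibitor than protease (88.4%, 83.2 to 92.4%). The same held for 149 of the 174 cells of CPCC (85.6%, 79.5 to 90.5%) and for 129 of the 223 cells of CB (57.8%, 51.1 to 64.4%). Protease exceeded inhibitor in 3.38% of mESC, 10.9% of CPCC and 37.7% of CB cells, and the remaining cells held neither. The share with more inhibitor was 76.6 to 92.1% in the mESC pools, 78.9 to 93.7% in the CPCC pools and 48.7 to 65.1% in the CB pools, so each CB pool lay below each pool of the other cultures. Without Timp3, whose exons overlap Syn3, the CB share was 45.7%.

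What lay behind these shares differed between the cultures with a similar share. Most mESC cells, 69.6%, held inhibitor and no count of the 5 proteases, and only 20.3% held both. In CPCC 64.9% held both and 28.7% inhibitor alone, and in CB 83.4% held both and 5.83% inhibitor alone. Other Mmp genes were not counted here, although Mmp11 was found in 77.2% of mESC, 52.6% of CPCC and 52.2% of CB cells. In cells with both, the median log2 ratio of protease to inhibitor, as (CPM per kb + 1), was -3.39, -2.75 and -0.50 for mESC, CPCC and CB. The middle portion of CB cells, between the quartiles, ran from -1.94 to 0.91, so such cells lay on both sides of equality. The summed inhibitor level per kb was 37.0 times that of the 5 proteases in mESC, 5.52 times in CPCC and 0.955 times in CB. In CPM without length it was 8.36, 2.97 and 1.02 times. By pool the ratio per kb was 59.1, 30.5 and 31.6 in mESC, 10.1 and 4.80 in CPCC, and 1.47, 0.841 and 0.874 in CB, so it did not place CB on either side of 1.

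**Figure D4:**
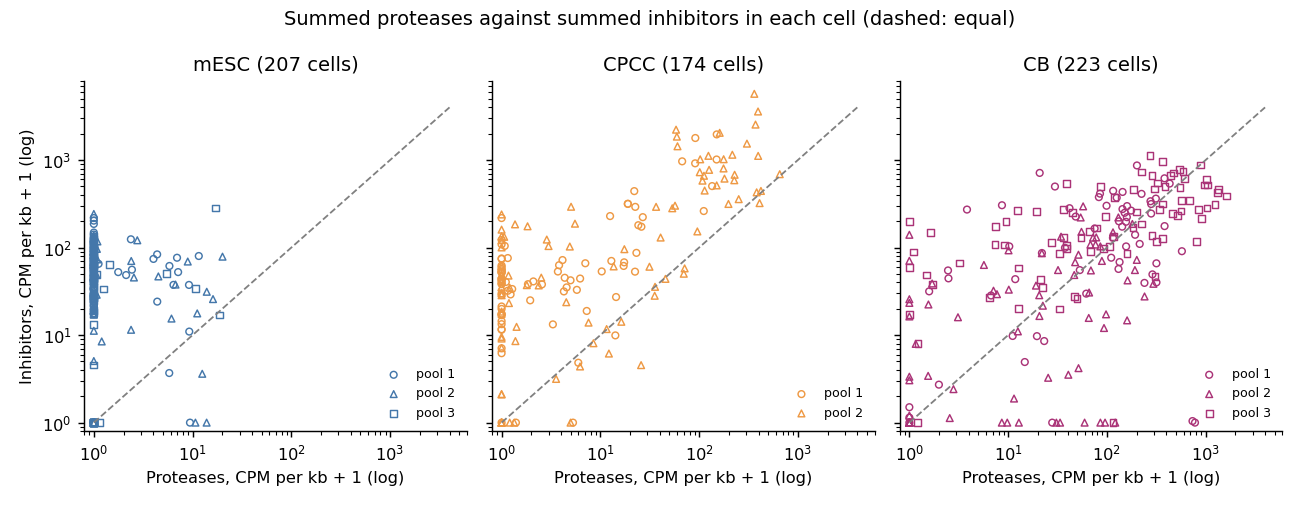
Each point is a cell of at least 10000 counts. The horizontal axis is the summed CPM per kb of the 5 proteases and the vertical axis that of the 3 inhibitors, each plus 1 on a log axis, with markers by pool and a dashed line of equality. Most mESC cells stand on the left edge with no count of these proteases, CPCC cells lie mostly above the line and CB cells lie along it, with 57.8% above.

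The genes for the activation complex, Mmp2, Mmp14 and Timp2, were found together in the same cell in 1 of 207 mESC cells (0.483%, 0.0122 to 2.66%), 57 of 174 CPCC cells (32.8%, 25.9 to 40.3%) and 128 of 223 CB cells (57.4%, 50.6 to 64.0%). By pool the share was 16.5% and 46.3% in CPCC and 65.1%, 32.9% and 73.8% in CB, so CB pool 2 lay between the CPCC pools. After every cell was thinned to 430000 counts, 0 of 193 mESC, 31.2% of 157 CPCC and 52.9% of 210 CB cells held all 3, where the exact interval of the mESC share reaches 1.89%. Before thinning, of the 166 CB cells of at least 10000 counts with Mmp2, 145 also held Mmp14 and 142 held Timp2. Of the 82 CPCC cells with Mmp2, 63 held Mmp14 and 63 held Timp2. In mESC, 5 of 17 cells with Mmp2 held Mmp14.

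Mmp2, Mmp14 and the inhibitors had positive Spearman's rho of their CPM with each other across the cells of CPCC and of CB. Within CB pools some were near 0, down to -0.05 for Mmp2 with Timp3. In the 174 CPCC cells rho was 0.65 for Mmp14 with Timp2, 0.63 for Mmp2 with Mmp14 and 0.61 for Mmp2 with Timp2, and within the pools these ran from 0.45 to 0.73. In the 223 CB cells the same pairs had rho of 0.47, 0.43 and 0.46, and within the pools from 0.18 to 0.47. For Timp1 with Timp2 rho was 0.38 in CPCC and 0.26 in CB, with 0.42 to 0.48 and 0.09 to 0.41 within the pools. Mmp9 had rho of 0.03 with Mmp2 in CPCC and -0.03 in CB, with -0.06 to 0.25 and -0.10 to 0.04 within the pools. With Mmp14 in CPCC its rho was 0.215, and -0.05 to 0.49 within the pools. Cells share their chip, library preparation and depth, so these values are descriptions. In mESC the highest rho among these 5 genes was 0.17, for Mmp2 with Mmp14.

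The cells of each culture were clustered with the 8 members left out, and the members were then read in the clusters. CPCC gave 4 clusters. Cluster 0, with 75 cells and Tdh, Mkrn1, Mt2, Mt1 and Dppa5a as its leading genes, had all 10 pluripotent markers in most cells. Cluster 1, with 55 cells and Acta2, Tagln, Sparc, Vim and Anxa2 as its leading genes, had 4 of 10 fibroblast and 4 of 7 smooth muscle markers in most cells and was left unnamed. Cluster 2, with 30 cells, was led by Slc2a3, Tdgf1, Lefty1, Car4 and Igfbp2, and cluster 3, with 14 cells all from pool 2, by Spp1, C1qb, C1qc, Fcrls and Ctsb. The last had all 10 macrophage markers in most cells and is called macrophage-like.

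The Acta2-led cells carried most of the set in CPCC. They were 55 of 174 cells and held 94.6% of the Mmp2 counts, 84.4% of Mmp14, 91.2% of Timp1, 74.6% of Timp2 and 95.1% of Timp3. Their levels were 392 CPM for Mmp2, 136 for Mmp14, 488 for Timp1, 489 for Timp2 and 510.3 for Timp3, against 5.92, 8.85, 31.0, 3.47 and 10.9 CPM in the Dppa5a-led cells. Mmp2 differed between pools within this cluster too, with 89.0 CPM in 19 cells of pool 1 and 549 CPM in 36 cells of pool 2, and so did Timp1, with 324.5 and 573 CPM, Timp2, with 379.5 and 546 CPM, and Timp3, with 269.7 and 634 CPM, while Mmp14 had 113 and 148 CPM. Inhibitor exceeded protease in 51 of the 55 cells.

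Timp2 was also high elsewhere in CPCC. The macrophage-like cells held it at 468 CPM, in 14 of 14 cells, close to the 489 CPM of the Acta2-led cells. Timp1 and Timp3 were low there, at 4.44 and 15.0 CPM, and were found in 6 and 5 of the 14 cells. Timp2 made up 94.6% of the inhibitor level per kb in these cells, against 17.01% in the Acta2-led cells. Mmp14 was found in 9 of the 14 at 39.1 CPM, Mmp2 in 6 at 27.2 CPM and Mmp9 in none. All 14 cells came from pool 2, so these values rest on 1 pool.

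CB gave 4 clusters as well. Cluster 0, 83 cells of pools 1 and 3 led by Col3a1, Col1a2, Lum, Col1a1 and Dcn, had all 10 fibroblast markers in most cells, but none of these was among its 10 highest genes by fold, so it is called Col3a1-led here. Cluster 1, 77 cells with 56 from pool 2, was led by Stmn1, Tubb5, H2az1, Hmgb2 and Hist1h2ap. Cluster 2, 43 cells of pools 1 and 3, was led by Upk1b, Wfdc2, Cyp2f2, Upk3bl and Anxa1 and had all 8 epithelial and 5 of 10 fibroblast markers in most cells, so it was left unnamed. Cluster 3, 20 cells all from pool 2 and led by Ramp2, Kdr, Plvap, Mest and Vim, had all 10 endothelial markers in most cells and is called endothelial-like.

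The Col3a1-led cells held the largest part of each common member in CB. They had 83.2% of the Mmp2 counts, 69.5% of Mmp14, 82.1% of Timp1, 70.0% of Timp2 and 80.5% of Timp3. Their levels were 1191 CPM for Mmp2, 297 for Mmp14, 112.5 for Timp1, 608 for Timp2 and 750.1 for Timp3. Mmp2 had 483 CPM in the 36 cells of pool 1 and 1487 CPM in the 47 cells of pool 3. In these pools Timp2 had 392 and 698 CPM, Timp3 455 and 873.5 CPM and Mmp14 217.5 and 330 CPM, while Timp1 had 127 and 106 CPM. Here inhibitor exceeded protease in 45 of 83 cells (54.2%, 42.9 to 65.2%), beside 92.7% of the Acta2-led cells of CPCC (82.4 to 98.0%). The clusters with the most Mmp2 in each culture thus had 116 CPM per kb of Mmp2 against 550 of Timp1 in CPCC and 353 against 127 in CB. By pool, Mmp2 against Timp1 was 26.4 against 365 and 163 against 645 CPM per kb in the Acta2-led cells, but 143 against 143 in pool 1 and 441 against 120 in pool 3 of the Col3a1-led cells, so the higher Mmp2 of the latter rests on pool 3. These clusters are led by different genes and were not matched as a cell type.

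The other CB clusters differed in which members they kept. The Upk1b-led cells had Timp2 at 328 CPM, in 41 of 43 cells, with Timp3 at 158, Mmp14 at 107, Mmp2 at 85.6 and Timp1 at 11.0 CPM, and Timp2 made up 72.7% of their inhibitor level per kb. That share was 81.0% in the 32 cells of pool 3 but 39.6% in the 11 cells of pool 1, where Timp3 made up 50.7%. In pools 3 and 1 Timp3 had 75.8 and 507.5 CPM, Timp2 361 and 190 CPM and Mmp2 98.4 and 30.8 CPM. Inhibitor exceeded protease in 76.7% of the Upk1b-led cells (61.4 to 88.2%). The endothelial-like cells had Mmp14 in 20 of 20 cells at 112 CPM and Mmp2 in 18 at 280 CPM, with Timp3 at 206, Timp2 at 107 and Timp1 at 21.7 CPM, and inhibitor exceeded protease in 10 of the 20. The Stmn1-led cells had from 127 CPM for Mmp2 to 13.4 CPM for Timp1, and their Mmp2 was 82.7 CPM in the 56 cells of pool 2 but 415 CPM in the 16 cells of pool 1. In mESC the 3 clusters had Timp1 at 47.1 to 55.3 CPM and the other members at no more than 6.25 CPM.

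**Figure D5:**
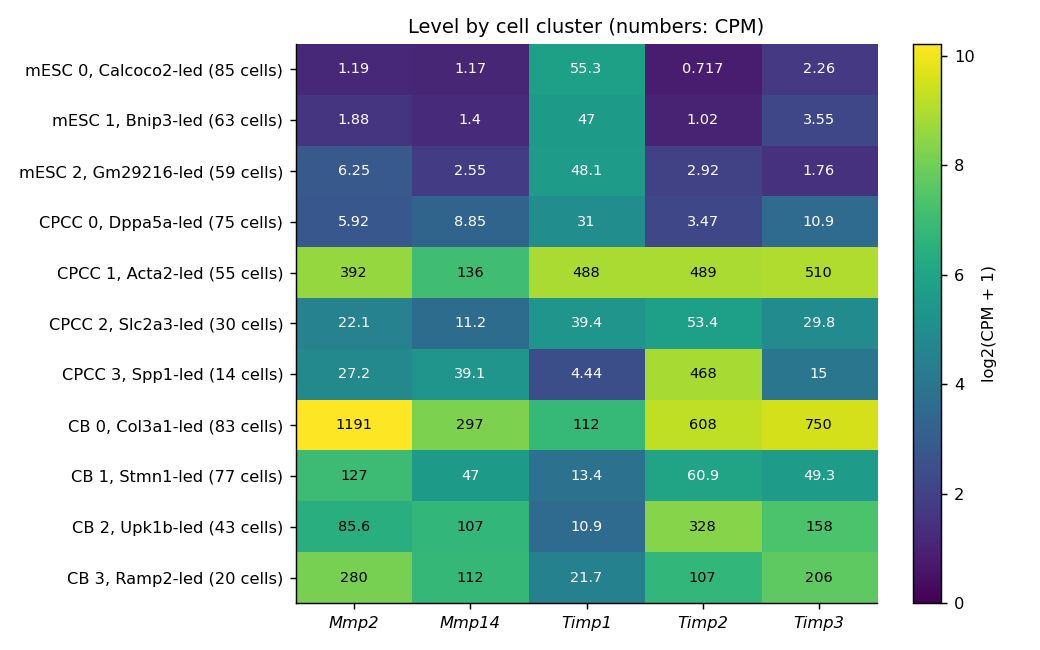
Levels of Mmp2, Mmp14, Timp1, Timp2 and Timp3 in each cluster of the 3 cultures, as colour on a log2(CPM + 1) scale with the CPM written in each field. The Acta2-led cluster of CPCC and the Col3a1-led cluster of CB are high in all 5, except that Timp1 is at 112.5 CPM in the latter, and the Spp1-led macrophage-like cluster is high in Timp2 alone.

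Genes whose level ran most like a member's over the cells of a culture were taken among genes found in at least 20% of the cells. In CPCC these were Cd109, Rbms3 and Tnc for Mmp2 (rho of 0.75, 0.73 and 0.72), Morrbid, Wls and Anxa1 for Mmp14 (0.71, 0.70 and 0.70) and S100a6, Bmp1 and Prrx2 for Timp1 (0.69, 0.66 and 0.65). Cd44, Anxa5 and Itgb1 were most like Timp2 (0.80, 0.79 and 0.79) and Sparc, Prss23os and Ccdc80 most like Timp3 (0.62, 0.61 and 0.60). In CB they were Bgn, Col1a2 and Col5a1 for Mmp2 (0.73, 0.67 and 0.66), Lgals1 and Col3a1 for Mmp14 (0.52 and 0.50), Lgals1 for Timp1 (0.51) and Lox, Eln and Col1a1 for Timp2 (0.60, 0.59 and 0.59). For Timp3 in CB only Syn3 reached a rho of 0.5, with 0.59. Syn3 is the gene whose exons overlap those of Timp3, and 47 of the 48 CB cells with Syn3 also held Timp3. No gene reached 0.5 for Timp1 in mESC, the only member found in enough mESC cells. Within pools some of these values were much lower, such as 0.03 for Timp2 with Eln.

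The proteins that these enzymes cleave were given by 15 genes. Of the 12 listed in both tables of the pair, 9 were at least 2-fold higher in CPCC than in mESC and 10 in CB than in mESC, and of 15 listed in CPCC and CB 9 were higher in CB. None was 2-fold lower in any pair. Of all genes compared, 17.5, 30.8 and 21.3% were at least 2-fold higher in these 3 pairs, and the median log2 ratios of the list were 3.07, 3.65 and 1.36, beside -0.01, 0.29 and 0.22 for all genes. Col1a2, a chain of the main fibrillar collagen, had 0.179, 140.5 and 1972 CPM in mESC, CPCC and CB, and its partner chain Col1a1 had 1.11, 139 and 999.8 CPM. The basement membrane collagens Col4a1 and Col4a2 had 4.34, 144 and 371 CPM and 1.32, 79.4 and 264 CPM. Col5a1 had 3.31, 119 and 305 CPM, and Sparc, a collagen-binding protein that mESC also held, 638, 1934 and 3288 CPM. The laminin chains Lamb1, at 5.81, 99.5 and 126 CPM, and Lama1, at 13.3, 67.7 and 36.7 CPM, were at least 2-fold higher in CPCC and in CB than in mESC. Col18a1, from which endostatin is cut, had 27.7, 58.2 and 98.8 CPM, and the proteoglycan Vcan had 28.4, 54.8 and 247 CPM. Not listed for mESC, Col3a1 had 109 and 2228 CPM in CPCC and CB, Dcn 14.3 and 1260 CPM, and elastin, Eln, 1.01 and 251 CPM. Fn1, or fibronectin, and Lamc1 stayed within 2-fold in each pair.

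Genes for activation and uptake numbered 10. Of the 8 listed in both tables, 6 were at least 2-fold higher in CPCC than in mESC and 7 in CB than in mESC, whereas of 9 listed in CPCC and CB none was at least 2-fold higher in CB and 3 were lower. The shares over all genes were 17.5% and 30.8% higher for the first pairs, and 21.3% higher and 9.44% lower for CB against CPCC. The medians of this list were 3.23, 2.33 and -0.35. Plat, the tissue-type plasminogen activator, had 0.142, 72.6 and 136 CPM in mESC, CPCC and CB. Plaur, the receptor that holds urokinase at the cell surface, had 0.729, 62.2 and 18.8 CPM. The uptake receptor Lrp1 had 15.4, 39.2 and 75.4 CPM, and the cell surface receptor Cd44 had 0.0683, 68.2 and 53.2 CPM. Serpinb2, a member of the serpin family named after its values were seen, was also lower in CB than in CPCC, at 1.01 against 15.6 CPM. Plg, plasminogen itself, was listed only for CB, at 0.286 CPM.

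Of the 17 other Mmp genes, 4 were not listed anywhere: Mmp1a, Mmp7, Mmp8 and Mmp20. Among those past 1 CPM, 1 of 5 was at least 2-fold higher in CPCC than in mESC, 4 of 5 in CB than in mESC and 4 of 7 in CB than in CPCC, with 1 lower, beside 17.5, 30.8 and 21.3% of all genes higher. The first of these is near the share of all genes. Mmp11, or stromelysin-3, had 12.5, 15.1 and 64.3 CPM in mESC, CPCC and CB. Of the other inhibitors, named after their values were seen, the membrane-anchored Reck had 8.55, 8.46 and 44.6 CPM, the broad inhibitor A2m had 9.25, 0.754 and 19.4 CPM, and Timp4 was listed only for CPCC, at 0.717 CPM. Among 10 Adam and Adamts enzymes, 4 of 9 were at least 2-fold higher in CPCC than in mESC, 6 of 9 in CB than in mESC and 4 of 10 in CB than in CPCC, with none lower, beside the same shares of all genes. Adamts1, a protease of proteoglycans, had 0.271, 33.2 and 90.5 CPM, Adamts9 14.7, 16.2 and 59.2 CPM, and the sheddase Adam10 30.9, 56.9 and 98.5 CPM.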

How the data were processed

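Reads were aligned by the authors to GRCm38 (mm10) with STAR 2.7, per the labels, and 1 gene table per culture was deposited. The mESC and CB tables were deposited by the authors as estimated counts without scaling. Of their values above 0, 24.3% and 24.6% lay over 0.01 from a whole number, whereas the deposited CPCC table holds whole counts. Counting was run in Partek Flow, whose settings are not given in the sources used here, on libraries that do not mark strand (SMART-Seq and Nextera XT kits). Left out of CPCC were 208 rows that name no gene, 23 symbols turned into dates (0.139% of its counts) and 2 columns that belong to no sample and hold no values. The 3 tables were assigned to samples by the culture they are named for and columns to pools by name.

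Counts were summed over cells and scaled to CPM. Ratios used a pseudocount of 1 CPM and genes of at least 1 CPM in either culture. Detection meant 1 count or more, and cells under 10000 counts (8 mESC, 1 CPCC and 9 CB cells) were left out of per-cell values. Levels per kb used the union of GENCODE M21 exons. Intervals are exact 95% Poisson or Clopper-Pearson intervals. Clusters were made with Seurat 5.3.0 (LogNormalize to 10000, gene means 0.0125 to 3, dispersion over 0.5, counts regressed out, 10 principal components, resolution 0.6) without the members. No doublet caller was run, since the tables do not show which chambers held several cells. edgeR 4.0.16 (TMM) and DESeq2 1.42.0 gave other scalings, on rounded counts, and Python 3.11.15 with NumPy 2.4.6, SciPy 1.17.1 and pandas 2.3.3 did the rest. Ratios were tested on simulated data. Thinning was tested on cells of CB, whose thinned counts were compared with those at full depth. The members, lists and tests were chosen with earlier results of these data known. Besides the members, genes were named when at least 2-fold different with 50 CPM or more in the higher culture, when not listed, when among the 3 genes of highest rho over 0.5, or when among the 5 that lead a cluster. Serpinb2, Reck, A2m, Fn1 and Lamc1 were named outside this rule after their values were seen, and so were Actc1 and Myh6. The values of 1 gene of the activation and uptake list are not reported here.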

Additional observations from a re-analysis of the deposited data

How the results depend on the processing

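Of the 37 alternative counts of members at least 2-fold higher, 35 stayed within 1.5 times the reported count. Of the alternative log2 ratios of members, 153 moved beyond counting error, 81 did not, and 1 past 2-fold changed sign. The 81 include the alternative without a filter on low genes, which cannot change a log2 ratio. For example, Mmp2 in CB against CPCC ran from 0.43 to 4.16 without a pool. The counts that moved further were for CB against CPCC, where 1 to 4 members were at least 2-fold higher when a pool was left out, with 1 without CB pool 3 and 1 without CPCC pool 1. For CPCC against mESC the count without a pool was 5 to 6 and for CB against mESC 5. Mmp9 in CPCC against mESC was the only ratio past 2-fold to change sign, to -0.13 without CPCC pool 1, and it ran up to 1.84 without CPCC pool 2. Timp1 in CB against CPCC stayed at least 2-fold lower in all 12 alternatives, from -2.495 to -1.13. The share of cells with more inhibitor than protease was 78.9 to 93.7% in CPCC, 85.6 to 91.9% in mESC and 55 to 62.6% in CB without a pool. In CB it was 45.7% without Timp3, an alternative chosen after seeing the data, as was the use of the longest transcript as length, which did not move this share beyond its interval in any culture. Nor did CPM without length, thinning, a minimum of 5 counts or the cell filter. Shares of cells with a gene did move beyond their intervals: with 5 counts or more Mmp14 in mESC was 5.12%, Mmp2 36% in CPCC and 58.6% in CB, and Timp1 72% in CPCC. After thinning Mmp14 in mESC was 7.25% and Timp1 91.7%, and Timp1 was 91.6% with the cell filter. The summed inhibitor-to-protease ratio depended on length more: without it the values were 8.36 in mESC, 2.97 in CPCC and 1.02 in CB. The cause of these differences was not tested. At resolution 1.0 CB gave 5 clusters, and the highest level of Timp1 was in a cluster of 41 cells, that of Mmp2, Mmp14, Timp2 and Timp3 in another of 42 cells. The highest cluster then held 48.0% of the Timp1 counts, 46.0% of Mmp14, 51.1% of Timp2, 51.5% of Timp3 and 63.0% of Mmp2. CPCC gave 6 clusters at resolution 1.0 and 3 with 20 components. No paired analysis was possible because each group is 1 sample and no test was made. What is said of Mmp3, Mmp9 and Mmp12 rests on 2 to 12 cells per culture.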
